A study of Drosophila melanogaster with 999 samples.

Results

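Cytosolic ribosomal protein genes were taken as the rows of the deposited gene table whose symbol starts with RpL or RpS, and 84 of the 7279 rows met this rule, 51 of them for the large subunit and 33 for the small subunit. Symbols of mitochondrial ribosomal proteins start with mRp and were not included. The data hold single cells, each of them 1 library, that were sorted as RFP-positive, DAPI-negative and DRAQ5-positive cells from Drosophila melanogaster embryos of 19 to 20 h carrying OK371-GAL4 and UAS-RFP. OK371-GAL4 is a driver that is active in glutamatergic neurons, mainly motoneurons but also some neurons of the brain, and all cells share it, so that there is no control genotype. The libraries were made by SMART-Seq2, in which full-length cDNA is amplified by PCR without molecular identifiers, on 16 plates. The study added primers for 7 Hox genes to the reverse transcription and to the PCR. The labels name no embryo, so that the cells form 1 pooled sample, the plates are technical batches, and no test was made over cells. All intervals given are exact, at 95%, and cover counting error only.

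Ribosomal proteins and ribosomal RNA build the large and the small subunit of the ribosome. The proteins are needed in near-equal numbers, and in Drosophila many of their genes are known from Minute mutations, in which loss of a single copy slows growth. Some of the genes have a duplicate elsewhere in the genome, and in flies such duplicates are often used in the germline. The ribosomal protein mRNAs belong to the most abundant and shortest mRNAs of most cells, and their translation is controlled by nutrient signals.

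The cells held between 100027 and 5834773 reads, and the median cell held 340803. Of 6 neuron markers, all but 7 cells had at least 3 with 10 or more reads in the gene table, and all but 11 cells in the summed transcript estimates. In these sums, markers of other cell types were rare: 3 or more markers with 10 reads were found in 2 cells for glia, 3 cells for blood cells, 3 cells for dividing progenitors and 0 cells for muscle and for the germline (4 of 6 germline markers could be counted). Among the markers, nrv2 of the glia list had 10 reads in 53.4% of the cells, and no other marker outside the neuron list had them in more than 18 cells. The 11 rows of the gene table that are named for ribosomal RNA or its pseudogenes took 38.7% of the reads of the median cell, from 4.81% to 89.3%, and the main shares are also given without these rows.

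RpS25, a protein of the small subunit, had the highest level per length of the ribosomal protein genes, with a mean of 2691 TPM over all cells. TPM is a level per length that the authors deposited per transcript, summed here per gene. The cells varied widely around this mean: the lower quartile was 78.4 TPM, the median 1834 TPM and the upper quartile 4179 TPM, and the plate means ranged from 1671 to 4066 TPM. RpL40 (chromosome 2L, 4227699 to 4228561 on BDGP6.54), whose protein is made as a fusion with ubiquitin and then cut, followed at 2581 TPM (plates 1518 to 4076). The levels of RpS25 and RpL40 overlapped over the plates. RpS15 came next with 2005 TPM (plates 845.9 to 3541), then RpL36 with 1925 TPM (945.8 to 3330), RpS7 with 1677 TPM (675.95 to 2706) and RpLP1, a protein of the stalk that recruits elongation factors, with 1523 TPM (797.5 to 2220). RpS25, RpL40 and RpS15 were among the 10 highest members on each of the 16 plates, with worst ranks of 4, 4 and 8.

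The other fusion proteins were lower than RpL40. RpS27A, which is also made with ubiquitin, had 1178 TPM (plates 603.3 to 1891), and RpS30, which is made with a ubiquitin-like protein, had 1284 TPM (573.8 to 2279). The stalk proteins spread more: RpLP1 stood at 1523 TPM, RpLP2 at 1031 TPM (plates 590.2 to 1716) and RpLP0, which anchors both to the ribosome, at 409.3 TPM (189.4 to 609.01). The plate ranges of RpLP0 and RpLP1 did not overlap.

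**Figure D1:**
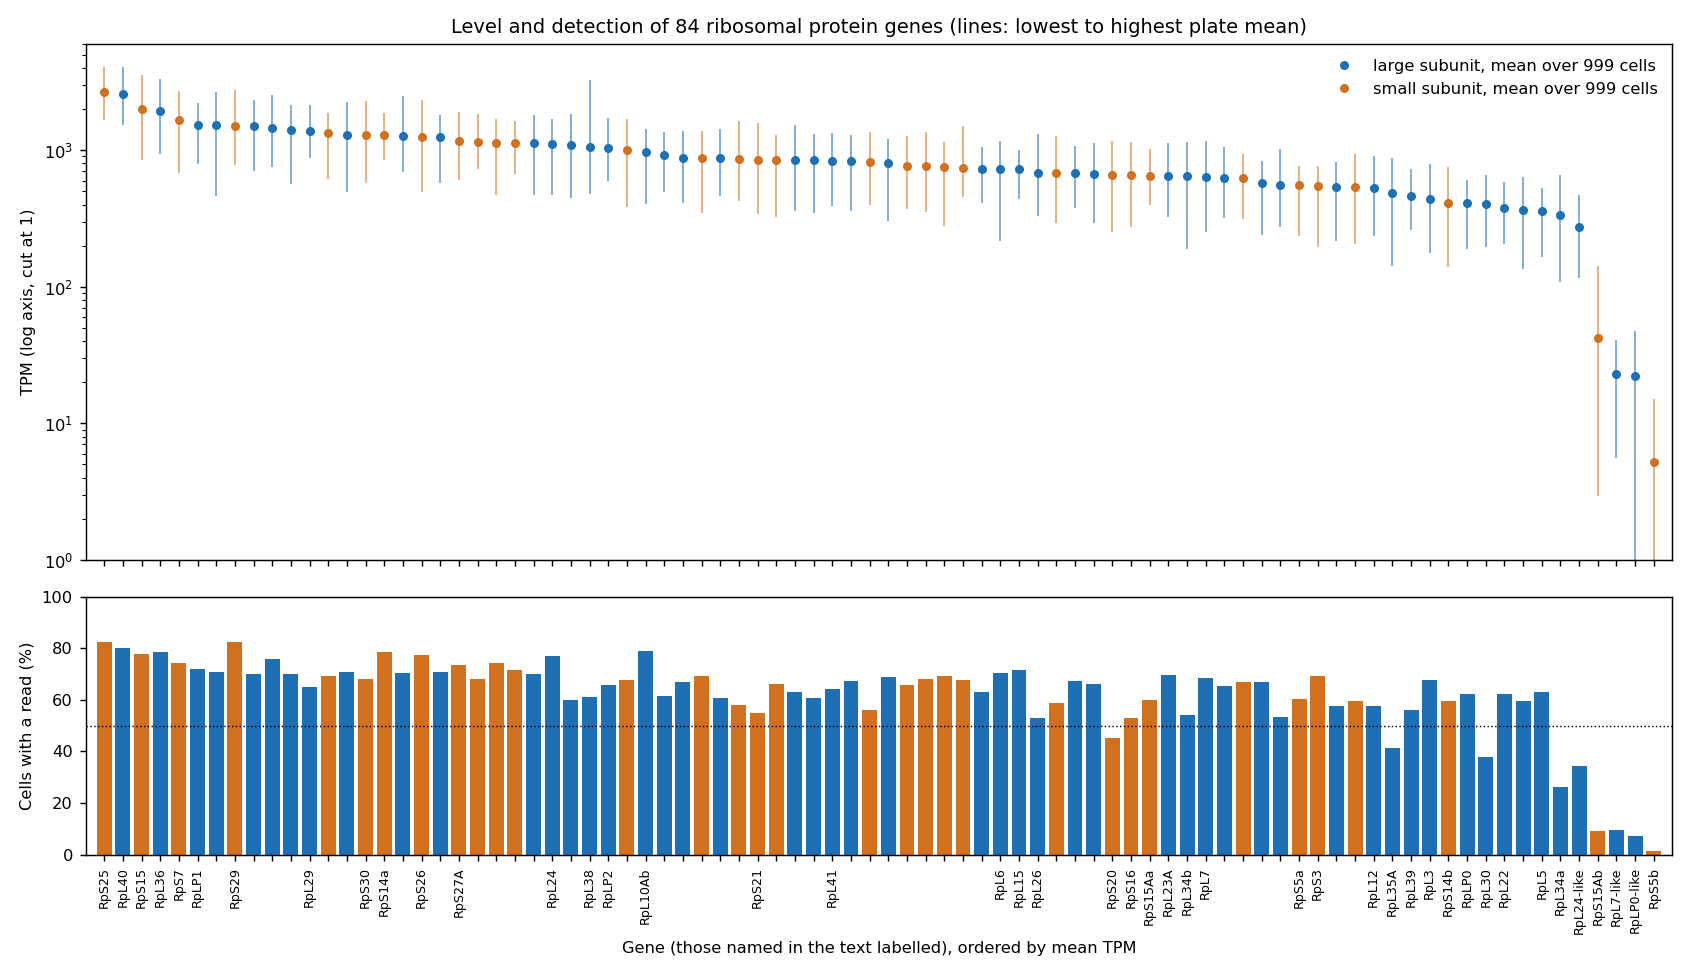
Mean TPM of each of the 84 ribosomal protein genes (upper panel, log axis, points for the mean over all cells and lines from the lowest to the highest plate mean) and the percent of cells with at least 1 read (lower panel, dotted line at 50%), with the genes named in the text labelled. The level falls gently from RpS25 at 2691 TPM to RpL24-like at 275.4 TPM and then drops to 42.02 TPM for RpS15Ab, the first of the 4 lowest genes.

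At the low end stood RpS5b with 5.25 TPM, RpLP0-like with 22.3 TPM, RpL7-like with 22.8 TPM, RpS15Ab with 42.02 TPM, RpL24-like with 275.4 TPM and RpL34a with 333.4 TPM. RpS5b, RpS15Ab and RpL34a are duplicates of other members. RpL24-like, RpL7-like and RpLP0-like resemble yeast factors that help to assemble the large subunit and are not parts of the finished ribosome. In the order by mean TPM, 81 of the 83 pairs of neighbours differed by less than the larger SD over plates. The exceptions were the step from RpL24-like to RpS15Ab, a difference of 233.4 TPM against an SD of 103.2 TPM, and the step from RpLP0-like to RpS5b, a difference of 17.03 TPM against an SD of 15.2 TPM.

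The 75 members with at least 1 read in 50% of the cells ranged from 360.2 TPM (RpL5, a protein that binds 5S ribosomal RNA) to RpS25, a ratio of 7.47, with a median of 842.1 TPM. Large and small subunit did not stand apart, with medians of 839.9 and 856.6 TPM. The order of the 75 genes was similar on all plates: over all pairs of plates, Spearman's rho of the plate means had a median of 0.82 (0.56 to 0.91), a description over genes that share the same cells. RpL38 had the widest span of ranks of the 75, from the highest level on 1 plate (rank 1) to rank 71 on another, and its plate means ran from 480.8 to 3287 TPM.

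The level per length depended on how length was counted. TPM divides by an effective length that assumes a fragment size, and for short transcripts this is far below the length: the short transcript of RpL39, a small protein at the exit of the peptide tunnel, counted as 75.5 bases, and the 1381 bases of a transcript of RpL3, a protein near the catalytic centre, counted as 1082. When the CPM, counts scaled to equal totals, were divided by the mean transcript length instead, RpL40 was the highest member at 854.9 CPM per kb, before RpS25 at 779.4, RpS15 at 699.8 and RpS7 at 678.98. RpL39 was the lowest of the 75 at 80.4 CPM per kb, where its mean of 465.6 TPM had been close to that of RpL3 (436.8 TPM). RpL41, the other very short member, was at 154.3 CPM per kb, against 839.9 TPM. Over the 75 genes both scales had a rho of 0.86 with each other, and rho with transcript length was -0.54 for TPM and -0.19 for CPM per kb.

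Detection differed less than level. A read of RpS29 was found in 82.5% of the cells (interval 79.98 to 84.8) and a read of RpS25 in 82.4% (79.9 to 84.7), the highest shares among the members. A read of RpL26, the lowest of the 75, was found in 52.9% (49.7 to 55.99). The median member was found in 66.5% of the cells, against 11.6% for the median of all 7279 genes, of which 13.8% reached 50% of the cells. With at least 10 reads, 56 members reached 50% of the cells, and with each cell thinned at random to 50000 reads, 68 did.

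The remaining 9 members were in under 50% of the cells. RpS20 was in 45.05% of the cells (41.9 to 48.2), RpL35A in 41.2% (38.2 to 44.4) and RpL30 in 37.9% (34.9 to 41.03). These are the only copies of their gene among the members, and they had 662.8, 485.8 and 403.7 TPM on average, within the range of the 75. RpL24-like was in 34.3% of the cells, RpL34a in 26.03%, RpL7-like in 9.71% (97 cells), RpS15Ab in 9.11% (91 cells), RpLP0-like in 7.11% (71 cells) and RpS5b in 1.502% (15 cells, 0.84 to 2.46).

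The median cell had reads of 55 of the 84 members, with quartiles of 37.5 and 69, and the cells ranged from 2 to 83. No cell had all 84. The plate medians ran from 39 to 70 members. Over all cells, detection rose with depth. Among the cells with 100027 to 224445 reads the median cell had 46 members. Among those with 224805 to 494603 reads it had 56, and among those with 495497 to 5834773 reads 63. The 3 classes were equal in cells and pooled the plates. Spearman's rho of the members detected with the total count was 0.26, and -0.26 to 0.67 within plates, above 0 on 14 of 16. The plate medians did not simply follow depth: plate 7 (17 cells, median total 129256) had 70 members, plate 9 (203938) 39 and plate 12 (658763) 42. All 75 members were found more often in the deepest than in the shallowest class. RpS25 went from 78.7% to 86.8% of the cells, and RpL39 from 44.4% to 67.3%. After thinning, the medians of the 3 classes were still 43, 49 and 56 members.

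The leading member differed from cell to cell. In the 82.8% of the cells with at least 1000 reads on members, the leading member took 8.05% of the ribosomal protein TPM in the median cell, with quartiles of 6.04% and 10.9%, and the 10 leading members took 46.3%. A maximum taken cell by cell lies above that of the mean by construction, which was 3.61% for RpS25 and 24.7% for the first 10 members over all cells. RpS25 led in more of these cells than any other member, RpL40 in 94, RpL36 in 46 and RpS15 in 42, and 66 different members led in at least 1 cell. An even mixture would give each member 1.19%.

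Together the 84 genes took 10642077 reads, or 2.10% of all reads and 3.78% of the reads outside the ribosomal RNA rows. In the median cell the share was 1.59%, with quartiles of 0.64% and 2.77%, and the cells ranged from 0.0016% to 20.4%. In 66 cells it was below 0.1%, in 48 cells above 5% and in 6 cells above 10%. Of the reads outside the ribosomal RNA rows, the median cell had 2.60% (quartiles 1.32% and 4.09%, highest 24.8%). Of TPM, which weights short transcripts more, the median cell had 6.94% on the members.

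The share followed the plate in part. Plate 12 had the lowest median (0.71%), before plate 10 (0.76%), plate 8 (0.86%) and plate 14 (0.98%), and plate 5 had the highest (2.61%), before plates 6 (2.504%) and 16 (2.498%). The ribosomal RNA rows took 55.8% of the reads of the median cell on plate 12 and 37.3% on plate 5. Without these rows the order changed in part: plate 10 was the lowest (1.34%), before plate 12 (1.58%), and plate 5 stayed the highest (4.06%), before plate 7 (3.91%), which had 1.57% of all reads. Differences between plates accounted for 12.9% of the variance of the share between cells and for 9.61% without the ribosomal RNA rows, against 23.9% for the log total count and 7.48% for the number of genes detected. For single members, on the scale of log2(count per 100000 reads + 1), plates accounted for 2.27% (RpL5) to 9.11% (RpS26), with a median of 4.91%, against a median of 3.26% for the 1002 genes in 50% of the cells. After RpS26, a protein at the exit site of the mRNA, came RpS14b with 8.35%, RpL6 with 7.28% and RpS15 with 7.01%.

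**Figure D2:**
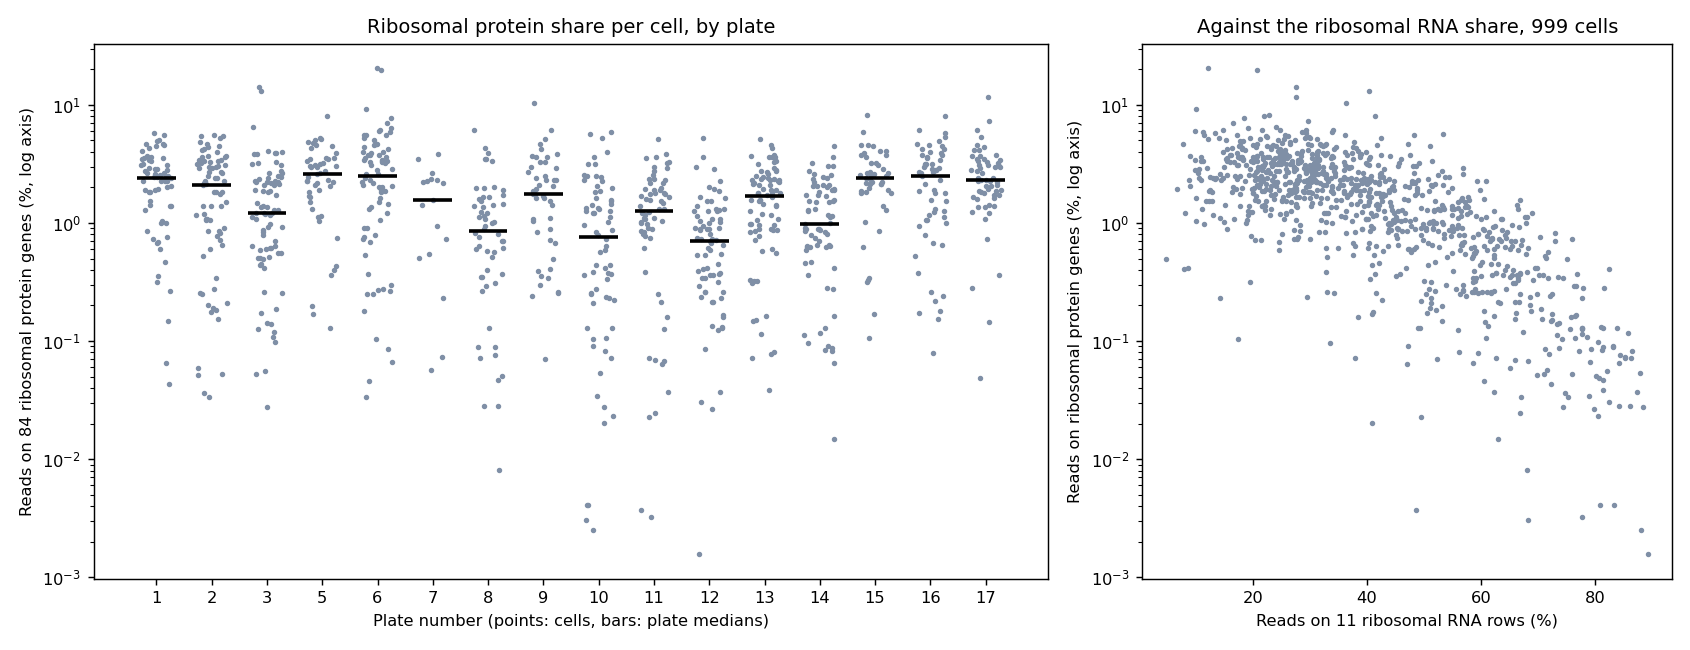
Percent of reads on the 84 ribosomal protein genes in each cell (log axis), by plate with bars at the plate medians (left) and against the percent of reads on the 11 ribosomal RNA rows (right). Plate medians lie between 0.71% and 2.61% while single cells span 0.0016% to 20.4%, and the cells with the highest ribosomal RNA share lie lowest.

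The share had little relation to depth as such. Spearman's rho of the share with the total count was 0.04 over all cells, and within plates it ranged from -0.50 to 0.58, above 0 on 12 of 16 plates. With the number of other genes detected, however, rho was 0.64, and 0.53 to 0.81 within the 16 plates. After thinning of the counts for the number of genes it was 0.75. With the share of the ribosomal RNA rows, rho was -0.70 (-0.91 to -0.40 within plates). Both are shares of the same total, and without the ribosomal RNA rows in the total rho was -0.50. With the share of the 20 highest genes in a cell it was -0.82. These values describe cells of 1 pool that share depth and library quality, and which of these the ribosomal protein share depends on was not tested.

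The cells with the highest shares differed in their markers. The highest was 20.4%, in a cell of plate 6 with 4649 genes, 83 members detected, 0 reads of the glutamate transporter gene VGlut and 22 reads of the neuronal gene elav. The next had 19.7%, also on plate 6, with 0 reads of VGlut and 25 of elav. Cells of plate 3 followed with 14.2% (8 reads of VGlut, 19 of elav) and 13.2% (0 reads of both). These 4 cells had 3, 3, 3 and 2 of the 6 neuron markers with 10 reads. Among these was Syt1, a calcium sensor of synaptic vesicles, with 62, 44, 44 and 23 reads, while nSyb had 0 reads in all 4. They also had 63550, 42079, 88 and 1463 reads of Ppn and 124609, 45281, 0 and 50307 reads of Nplp2, genes outside the marker lists. The cell type of these 4 cells was not tested. The fifth and sixth, with 11.7% and 10.5%, had all 6 neuron markers with 10 reads and 0 reads of Ppn and Nplp2. Without the ribosomal RNA rows the 6 cells had 23.2%, 24.8%, 19.6%, 22.1%, 16.1% and 16.4%. By a rule that uses neuron markers only, 7 cells had fewer than 3 of the 6 neuron markers with 10 reads, and their shares were 0.0041%, 0.0081%, 0.21%, 0.998%, 2.797%, 3.04% and 13.2%. Without these 7 cells the median share was 1.60%.

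Ribosomal protein genes varied together from cell to cell. Over the 2775 pairs of the 75 members, Spearman's rho of the CPM over all cells had a median of 0.37, and all 2775 pairs were above 0 (0.14 to 0.79). All pairs of the 1002 genes in 50% of the cells had a median of 0.07, and the members with other genes 0.11. In 86.2% of the member pairs rho was over 0.3, against 5.37% of all pairs. The subunits did not form separate groups: the median was 0.37 for pairs within the large subunit, 0.36 within the small subunit and 0.37 between them. Within single plates the median over pairs ranged from 0.22 to 0.50, with a median of 0.33 over the 16 plates. These cells share a pool, and those of a plate a preparation.

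The correlation was lower when the ranks of each gene were regressed on measures of the cell. With the total count alone the median of the member pairs was 0.36, and with the number of genes detected alone it was 0.18. With both, the median of the member pairs was 0.16, that of all pairs 0.02 and that of members with other genes 0.01. Of the member pairs, 2772 of 2775 were still above 0. With the total count taken without the ribosomal RNA rows, the median was 0.33.

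Among the members with the highest median rho with the other members were RpL40 (0.44), RpS15 (0.44) and RpS7 (0.43). RpL34b had the lowest (0.22), then RpS21 (0.23), RpL12, a protein at the base of the stalk (0.29), and RpS3, a protein of the mRNA entry channel (0.30). The lowest of all pairs was RpS21 with RpL15 (0.14), and RpL34b with RpL38 also had 0.14. The highest pair was RpS14a with RpS14b (0.79), for which reads of near-identical copies could have been divided between both genes (see the paralogs). The next were RpL39 with RpS25 (0.57) and RpL40 with RpS25 (0.57), which join both subunits, and RpL40 with RpL23A (0.57), both of the large subunit.

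**Figure D3:**
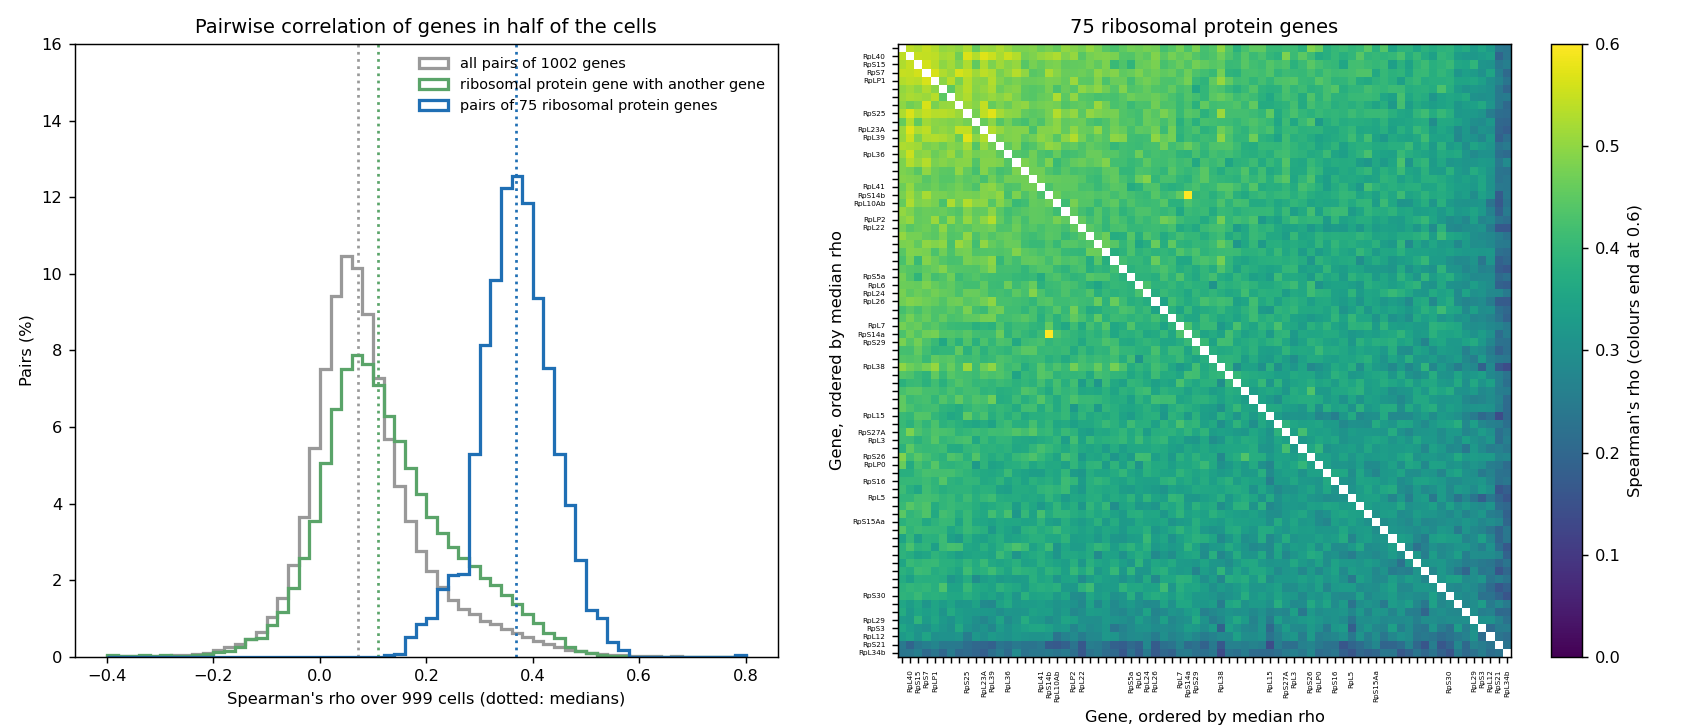
Spearman's rho over all cells for pairs of genes in 50% of the cells: distributions from -0.4 to 0.8 (left, percent of pairs, dotted lines at the medians) and the 75 ribosomal protein genes as a matrix ordered by median rho (right, colour scale ending at 0.6, diagonal left white, genes named in the text labelled). The member pairs centre on 0.37 and all pairs on 0.07, and RpL34b and RpS21 form the dark edge of the matrix.

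Other genes of translation and of energy metabolism moved with the ribosomal protein share. The list of translation factors held 29 genes, of which sta and Rack1 encode proteins of the small subunit, and their sum had a rho of 0.85 with the share (0.71 to 0.90 within plates). Without these 2 the sum of 27 genes had a rho of 0.82 (0.64 to 0.89 within plates). Of these 27, 10 were in 50% of the cells, all 10 had a rho above 0 and 7 had one over 0.3. Examples were eEF1alpha1, which brings the tRNA to the ribosome (rho 0.66), the helicase eIF4A (0.62) and pAbp, which binds the poly-A tail (0.58). The other genes in 50% of the cells had a median rho of 0.18 with the share, 90.2% of them had one above 0 and 28.05% had one over 0.3. This background is of single genes, and no sum of other genes was taken beside the sums of the lists. None of these values was adjusted for the number of genes detected. All 75 members exceeded 0.3 with the share of the other members, with a median of 0.57.

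The 62 nuclear genes of oxidative phosphorylation had a rho of 0.81 as a sum, and all 32 in 50% of the cells were over 0.3, among them ATPsynC (0.66) and Cyt-c-p (0.67). Of all genes outside the members, His4r, a histone gene, was the closest to the share with 0.76, and it belongs to none of these lists. The 73 mitochondrial ribosomal protein genes, none of them in 50% of the cells, had a rho of 0.74 as a sum, and the 12 glycolytic genes had 0.60, with 0.61 for Ald and 0.58 for Gapdh2. Genes of ribosome biogenesis were low, at 0.016% of the reads of the median cell for 21 genes, with a rho of 0.37, and Nop60B, the only one in 50% of the cells, had -0.11. Without the ribosomal RNA rows in the total, these values were 0.74 for translation factors (0.69 without sta and Rack1), 0.72 for oxidative phosphorylation, 0.64 for mitochondrial ribosomal proteins, 0.44 for glycolysis and 0.27 for ribosome biogenesis.

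Among the paralog pairs, 1 gene held most of the reads in each. RpS14a and RpS14b are neighbours on chromosome X (7933742 to 7934677 and 7934898 to 7935792), and RpS14b had 38055 reads against 153275 of RpS14a, or 19.9% of the pair (interval 19.7 to 20.1, plates 6.70% to 25.5%). Of the cells with RpS14b, 98.8% also had RpS14a. As both genes are near-identical, reads may have been divided between them by the estimation of counts, and the share is uncertain.

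RpL34a and RpL34b lie apart on chromosome 3R, and RpL34a had 36274 reads against 75326 of RpL34b, 32.5% of the pair (32.2 to 32.8, plates 17.6% to 42.1%). Their cells were more often different: RpL34b was found in 66.2% of the cells with RpL34a and in 49.9% of the cells without it. Their rho was 0.17. In 88 cells RpL34a was found without RpL34b. RpL34a was the only second copy with a share above RpS14b's.

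The other second copies were minor. RpS15Ab had 6.41% of the reads of the pair with RpS15Aa (plates 0.14% to 10.98%), in 91 cells of which 87 also had RpS15Aa. RpS5b, known for its role in the ovary, had 1079 reads, or 0.81% of the pair with RpS5a (plates 0 to 3.77%), and 53.3% of these reads came from a single cell. RpL24-like had 15.8% of the reads of the pair with RpL24 (plates 8.32% to 24.7%), RpL7-like 3.78% of the pair with RpL7 and RpLP0-like 3.87% of the pair with RpLP0. RpL24-like was thus several times more abundant, as a share of its pair, than the other 2 assembly factors, and its plate range lay above that of RpL7-like (0.19% to 7.60%) and overlapped that of RpLP0-like (0 to 14.5%).

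**Figure D4:**
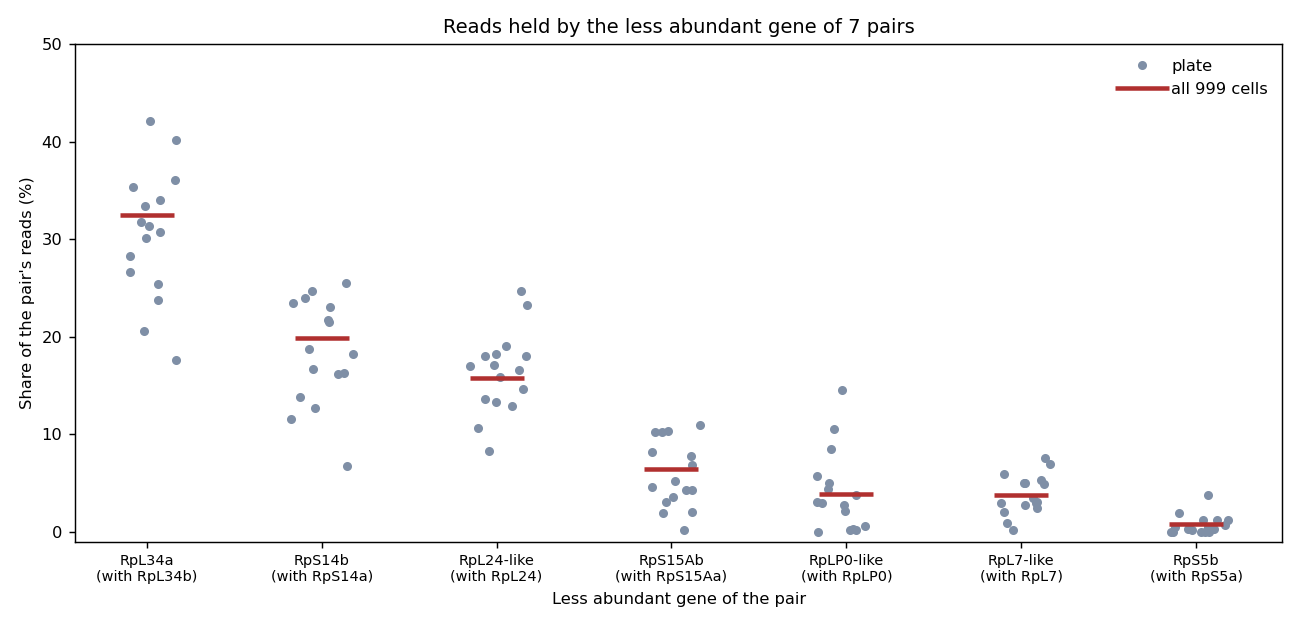
Percent of the reads of a pair of related genes that the less abundant gene held, on each of 16 plates (points) and over all cells (bars), for 7 pairs. RpL34a held 32.5%, RpS14b 19.9% and RpL24-like 15.8%, and the other 4 held 6.41% or less.

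Some reads can belong to another gene. In the BDGP6.54 annotation the exons of 18 of the 84 members overlap those of another gene of the table, 6 of them by more than 100 bases, and SMART-Seq2 reads carry no strand. The genes concerned include RpL24 (with CG7099), RpL30 (with CG31793) and, on the same strand, RpL7-like (1771 bases with CG34164), whose counts are the least certain.

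RpS12, sta and Rack1 also encode proteins of the small subunit but fall outside the rule. RpS12 is listed without a symbol in the table and was named by its identifier (FBgn0286213), with 150157 reads in 71.2% of the cells (68.3 to 73.96) and 1484 TPM. The laminin receptor homolog sta was in 70.3% of the cells at 861.3 TPM, and the scaffold protein Rack1 in 50.1% at 286.8 TPM. The correlation with the ribosomal protein share (Spearman's coefficient) was 0.60, 0.66 and 0.47. With these 3 genes the median share was 1.66%.

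Cells with twit or Vmat were compared with the other cells, as the study used these genes as markers of its motoneuron clusters. Those clusters came from the expression of many genes. The groups here were set by reads of twit and Vmat alone and need not hold the same cells. Vmat encodes the vesicular monoamine transporter and marks the modulatory VUM neurons. At 10 or more reads, 19.6% of the cells had twit, 79 cells had Vmat, 9 cells had both, and the low-twit cells (73.4%) had neither. Both comparisons share the low-twit cells.

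The mean ribosomal protein share differed between the groups by less than the spread of the cells in each. In the twit cells the lowest share was 0.023%, the median 1.32% and the highest 11.7%, with a mean of 1.84% ± 1.77 (SD over cells). In the low-twit cells the lowest was 0.0016%, the median 1.64% and the highest 20.4%, with a mean of 1.97% ± 1.90. The 4 cells with the highest shares of all, 13.2% to 20.4%, were low-twit cells, and the comparison was not recomputed without these 4. In the 79 Vmat cells the lowest was 0.028%, the median 1.87% and the highest 6.99%, with a mean of 1.95% ± 1.497. The quartiles were 0.40% and 2.87% for twit, 0.68% and 2.74% for low-twit and 0.78% and 3.16% for Vmat cells, and these ranges overlap. Without the ribosomal RNA rows the means were 3.07%, 2.96% and 3.06% and the medians 2.64%, 2.58% and 2.80% for twit, low-twit and Vmat cells, so that twit cells were no longer below low-twit cells.

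The log2 ratio of the means was -0.10 for twit cells, with 6 plates higher and 10 lower and an SD of 0.64 over the plates. The mean of the differences within plates was -0.11. The ribosomal RNA rows took 49.2% of the reads of the median twit cell and 36.2% of the median low-twit cell, and without these rows the log2 ratio was 0.05, with 7 of 16 plates higher. For Vmat it was -0.01, with 2 of 6 plates higher and an SD of 0.49, and without the ribosomal RNA rows (41.1% of the median Vmat cell) it was 0.05. Other ways of averaging moved the Vmat value: the mean of the differences within plates was -0.34 (-0.22 without the ribosomal RNA rows), the ratio of summed counts gave -0.41 and that of the medians over cells 0.19. No direction can be given for either group. The summed level of the glia markers had a median of 13.8 CPM in twit, 61.9 CPM in Vmat and 65.6 CPM in low-twit cells. Of the 155133 reads of this list nrv2 held 151208, so that the sum mostly reflects nrv2. The summed level of muscle, blood cell, dividing progenitor and germline markers was 0 in the median cell of all 3 groups. The part of the markers or of the ribosomal RNA rows in the difference was not tested.

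By pooled means, single members differed little between twit and low-twit cells. By a fold of 1.5 on mean CPM, 10.6% of the 7199 genes compared were higher and 44.9% were lower in twit cells, as most genes had a lower mean there (median log2 ratio -0.48). Of the 84 members, 2 were higher and 1 was lower, and these were RpLP0-like (0.96), RpL24-like (0.75) and RpS5b (-0.73), all in under 50% of the cells. Of the 75 members in 50% of the cells, none passed the fold in either direction, where 4.99% of the 1002 genes in 50% of the cells were higher and 28.3% lower. The 75 had a median log2 ratio of -0.09, against -0.30 for the 1002 genes. In the total without ribosomal RNA rows the median over all genes compared rose by 0.18, and that of the 75 members became 0.06, with 47 of 75 above 0 in place of 26. On that total 14.8% of the genes compared were higher and 37.3% lower, and of the members 3 were higher, with RpL7-like (0.72) added, and 0 were lower. By the median of the differences within plates, 0 of the 75 were higher and 7 were lower, among them RpL15 (-0.79) and RpL23A (-0.76), where 4.49% of the 1002 genes were higher and 35.03% lower.

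RpL15, a core protein of the large subunit, was the member closest to the fold, with a mean of 147.02 CPM in twit and 220.4 CPM in low-twit cells, a log2 ratio of -0.58, and a lower mean on 12 of 16 plates. RpL22 followed with -0.55 (150.3 and 219.2 CPM), and RpL26 was at -0.46. On the higher side stood RpS16 with 0.35 (165.6 and 129.6 CPM), RpS21 with 0.33, RpL29 with 0.32 and RpL34b with 0.31. RpS21 was higher on 11 of 16 plates and was detected in 66.8% of twit and 51.98% of low-twit cells. Without the ribosomal RNA rows RpL15 was at -0.39 and RpS21 at 0.57, both within the fold.

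Of the members that passed the fold, RpL24-like was detected in 47.4% of the twit and 30.97% of the low-twit cells, at means of 115.7 and 68.6 CPM. Leaving out plate 13 brought its log2 ratio to 0.46 and leaving out plate 15 to 0.57, within the fold. Its mean was higher on 9 of 16 plates, and the median of the differences within plates was 0.34, also within the fold. RpLP0-like was in 23 twit cells (11.7%) and in 45 low-twit cells (6.14%), and fell to 0.56 without plate 13, with a higher mean on 9 of 11 plates and a within-plate median of 0.62. RpS5b rested on 4 twit cells with 73 reads, was at -0.58 without the ribosomal RNA rows and reached -0.32 when single plates were left out. On the only plate where it could be compared within the plate its log2 ratio was 0.42, in the opposite direction.

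For Vmat, 14.8% of the 6936 genes compared were higher and 32.2% lower, and of the 83 members with a read in both groups 1 was higher and 7 were lower. RpS5b had 0 reads in the 79 Vmat cells and 1006 reads in the low-twit cells, and was not compared. Of the 75 members in 50% of the cells, none was higher and 2 were lower, where 2.20% of the 1002 genes were higher and 9.08% lower. The medians were -0.02 for the 75 members and -0.10 for the 1002 genes. Within plates more genes were lower in both sets. By the median of the differences on the 6 plates with at least 5 Vmat cells, 24 of the 75 (32%) were lower and 0 higher. Of the 1002 genes, 27.8% were lower and 3.09% higher. These plates held 46 of the 79 Vmat cells, 5 to 11 on each. The medians were then -0.44 for the 75 members and -0.29 for the 1002 genes.

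The 2 lower members were RpS21 and RpL36. RpS21 had a mean of 65.2 CPM in Vmat and 114.7 CPM in low-twit cells, a log2 ratio of -0.82, with a lower mean on 5 of 6 plates. It was detected in 50.6% of Vmat and 51.98% of low-twit cells, and moved to -0.57 without plate 6 and to -0.48 in cells with at least 200000 reads. RpL36 had 207.5 and 329.7 CPM, a log2 ratio of -0.67, also lower on 5 of 6 plates, and was detected in 69.6% and 78.7% of the cells. Its ratio stayed between -0.75 and -0.61 when each plate was left out in turn. By the within-plate median RpS21 was at -1.81 and RpL36 at -1.22. RpL26 (-0.51) and RpL41 (-0.50) came next, with within-plate medians of -1.20 and -0.84, past the fold, and RpL26 was lower on 6 of 6 plates. This was no more frequent among the members than in the background. Of the 75 members, 5 (6.67%) were lower on all 6 plates, and of the 1002 genes 75 (7.49%) were. These 5 members include RpS23 and RpL28, whose ratios over all plates were above 0 (0.12 and 0.20). At the high end of the ratios over all plates stood RpL34b (0.44), RpL29 (0.39), RpL24 (0.37) and RpL10Ab (0.36), a protein of the L1 stalk. For RpL34b and RpL29 the mean was higher in Vmat cells over all plates but on only 2 and 1 of the 6 plates compared.

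Of the members in under 50% of the cells, RpL30 (-0.86), RpL34a (-0.68), RpS15Ab (-0.68), RpL35A (-0.68) and RpL7-like (-3.08) were lower in Vmat cells, and RpLP0-like (1.02) was higher. RpL7-like had 48 reads in 4 Vmat cells. A single cell held 60.6% of the RpLP0-like level in the Vmat cells, and without plate 16 its ratio was -0.37. RpL30 was detected in 29.1% of Vmat and 39.4% of low-twit cells and stayed past the fold without each plate, while RpL34a moved to -0.47 and RpL35A to -0.51 without plate 6, and RpS15Ab to -0.34 without plate 8. The within-plate medians of RpL30 (-0.55) and RpL34a (-0.48) were within the fold, as was the value of RpLP0-like on the only plate compared (0.45).

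**Figure D5:**
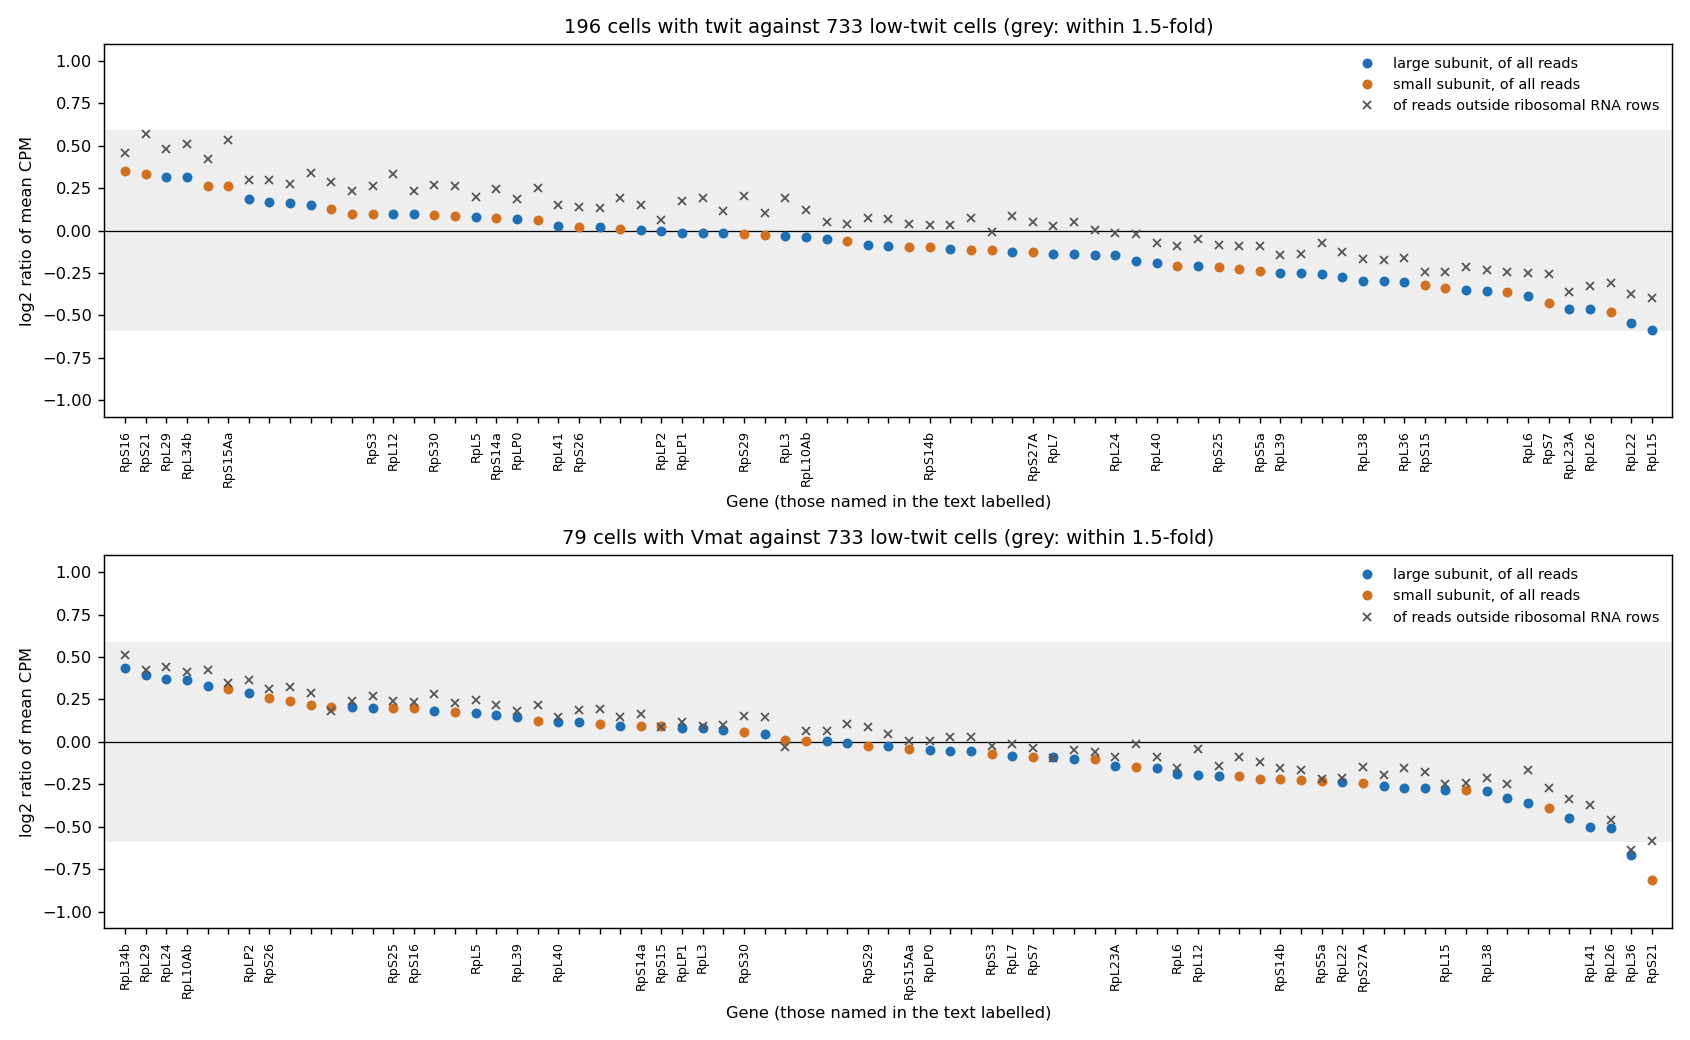
Log2 ratio of mean CPM in cells with twit (top) and 79 cells with Vmat (bottom) against the same low-twit cells for 75 ribosomal protein genes in 50% of the cells, with dots for shares of all reads and crosses for shares of reads outside the ribosomal RNA rows, and the genes named in the text labelled. All dots of the twit panel lie within 1.5-fold (grey), from -0.58 for RpL15 to 0.35 for RpS16, and in the Vmat panel RpS21 and RpL36 lie below it.

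Within the paralog pairs the groups differed in some shares. RpL34a held 36.5% of the RpL34 reads of low-twit cells, 19.7% of those of twit cells and 21.4% of those of Vmat cells. RpL24-like held 14.9%, 19.8% and 12.9%, and RpS14b 20.6%, 18.6% and 15.1%. The values of twit and Vmat cells for RpL34a lie within the range of the plates over all cells (17.6% to 42.1%), as do those of RpL24-like and RpS14b.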

How the data were processed

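Per the study's methods, trimmed reads were pseudo-aligned to BDGP6 cDNA, and the submitters' processing notes name kallisto 0.43.0 and R 3.5.1. The authors deposited a table of whole-number counts for 7279 genes and, for every cell, estimated counts and TPM of 30651 transcripts. The TPM and estimated counts the authors deposited were summed per gene with the Ensembl 115 annotation (BDGP6.54). For all 84 members the sums equalled the gene counts within 1 read. No column belonged to another sample. The cells had passed the study's filters on reads and genes before deposit, and no doublet caller was run.

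Shares and CPM used the total count of a cell, and fold comparisons used genes with at least 10 reads in 5 cells and a read in both groups, which leaves out 76 genes for twit and 339 for Vmat. This last condition was added after seeing the data. With 1 pooled sample no test was made, and a ratio past 1.5 was used as a rule of size. Cells were placed in groups by their titles (plate) and by 10 reads of twit or Vmat. The members and lists were chosen with earlier results of these data known. Named members are the 6 highest and 6 lowest by TPM, those in under 50% of the cells, paralogs, the 4 highest and lowest by correlation, the 4 highest by plate, the 4 largest differences in each direction per group, stalk and fusion proteins. Others were named after their values were seen: RpL38, RpS29, RpL3, and RpL39 and RpL41 for their length. In simulated counts for 7279 genes, 100% of 200 changed genes passed the fold. All these changes were set beyond the fold, in genes above a minimum level and without plate effects. That share therefore checks only the calculation of the fold rule. The reliability of this rule on the real counts was not tested. Python 3 scripts with the numpy, scipy and pandas libraries were used. Sequences and promoters were not used here, and some members that the rule picks are not reported here by name.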

Additional observations from a re-analysis of the deposited data

Results flagged for a closer look

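RpS19b and RpS10a, duplicates of the members RpS19a and RpS10b that are known from the germline, are not rows of the gene table but had reads in the estimated counts per transcript. RpS19b had 1200 reads in 2 cells, 1101 of them in 1 cell, against 146221 reads of RpS19a in all cells. RpS10a had reads in 10 cells, 2 of which had at least 10 reads, with 45 in the highest. Both lie above the 3 reads that a count of 0 allows. The duplicates RpL10Aa, RpL22-like, RpL37-2, RpS28a and RpS28-like had 0 cells with a read, which allows up to 0.3003% of such cells to hold a read and does not limit the cells that express the gene.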

How the results depend on the processing

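Of the recomputed shares, counts, correlations and paralog values, 93.9% stayed within 1 SD over plates (for the variance, over sets of plates) or, for counts, within 1.5 times. Most of these values left out 1 of the 16 plates. This can hardly move a pooled value by the SD of single plates, so that the percentage does not measure robustness. The median share was 2.60% without ribosomal RNA rows and 6.94% in TPM. Without each plate in turn it was 1.52% to 1.76%, the member correlation 0.36 to 0.38, rho with the total count -0.01 to 0.10, the log2 ratio of the share -0.17 to -0.04 for twit and -0.07 to 0.05 for Vmat, and the shares of RpS14b 19.4% to 20.5%, RpL34a 29.9% to 33.8%, RpS15Ab 5.32% to 7.41%, RpS5b 0.43% to 0.93%, RpL24-like 14.9% to 16.5%, RpL7-like 3.22% to 4.09% and RpLP0-like 3.21% to 4.20%. The member correlation was 0.16 with ranks regressed on total count and genes detected, 0.18 on genes detected alone and 0.18 on other genes detected alone, and rho was 0.65 with the number of genes in place of the total count. Plates accounted for 15.96% of the variance of the share in cells with at least 200000 reads and for 9.61% without ribosomal RNA rows. At 2-fold, 6.001% of the genes compared were higher and 28.1% lower in twit cells, 8.13% higher and 21.5% lower in Vmat cells, and of the members 0 were higher and 0 lower for twit and 1 was higher and 1 lower for Vmat. Without ribosomal RNA rows, 3 members were higher and 0 lower in twit cells. By the median of within-plate differences, 7 of the 75 members were lower in twit cells in place of 0 and 24 in Vmat cells in place of 2. These are 9.33% and 32% of the 75 members. Of the 1002 genes, 35.03% were lower in twit cells and 27.8% in Vmat cells by the same measure. The log2 ratio of RpLP0-like for Vmat was -0.37 without plate 16, and up to 1.31 without another plate. Of 11 calls of single members, 3 stayed past the fold in all 21 alternatives each, and 6 of the 11 were past it by the median within plates, with RpS5b turning to 0.42 for twit on 1 plate. Both counts include RpL7-like for Vmat, which rested on 48 reads in 4 cells, with 68.6% of its level in 1 cell. Its within-plate value came from 1 plate. Other causes were not tested. The alternatives without cells of few neuron markers, with RpS12, sta and Rack1, without ribosomal RNA rows for the plate variance and the fold counts, and those of single members, single covariates and within-plate counts were chosen after seeing the data. No paired analysis was possible because the replicate numbers only name cells of 1 group. Differences within plates were taken instead.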
